A study of Mus musculus with 2 samples.

Results

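Zfp36l2 encodes an RNA-binding zinc finger protein of the tristetraprolin family, whose members bind AU-rich elements in messenger RNAs and recruit the machinery that removes the poly(A) tail and degrades the message. The loops described here are the contacts that the chromatin protein BRD2 marks in the stretch of mouse chromosome 17 that ends at this gene. They were chosen from the listed positions by a fixed rule, namely a left or right edge between 83670000 and 84600000 on chromosome 17 (mm9), with loops over 5 Mb set apart. The rule found 37 loops, of which 31 form a single connected group of 25 anchors, 4 belong to smaller groups and 2 are longer than 5 Mb. The 31 loops are 0.401% of the 7732 loops and 5.64% of the 550 loops of chromosome 17, and the 25 anchors are 0.266% of the 9407 anchors of the list. Because the group was picked for its size from the same list, its size and span are descriptions and carry no test.

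The data come from ChIA-PET, in which an antibody pulls down a chromatin protein, here BRD2, with the DNA it holds, DNA ends that lie close together are ligated, and paired sequencing reads show which places were joined. The cells were wild type and untreated, of the embryonic stem cell line V6.5 from mouse. They grew in serum and LIF on irradiated embryonic fibroblasts, and a part of these feeder cells in the loops was not tested. The series has 1 group with 2 samples, labelled replicates 1 and 2, and the authors deposited a merged list, so no value below has a replicate error. The number of reads behind the list is unknown, and a loop that is missing from it cannot be called absent.

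BRD2 belongs to the BET family of proteins, which bind acetylated histone tails through paired bromodomains and are found at active promoters and enhancers. A loop joins 2 places of the genome that lay close enough to be ligated, and what lies at each anchor was not measured here. Each loop carries a score given by the authors. All scores are whole multiples of 1000, the lowest is 2000, and the unit of the score is not given in the sources used here. An anchor is a place where loop edges fall, a partner is an anchor joined to it by a loop, and upstream means towards lower coordinates.

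The gene name rests on the known place of Zfp36l2 on mm9, near the anchor whose right edge lies at 84587929. It was not checked against an mm9 annotation, and genes were not assigned to the other 24 anchors. In the RefSeq gene order (GRCm38.p6), the protein-coding genes before Zfp36l2 on the chromosome are Pkdcc, which encodes a secreted tyrosine kinase, Eml4, a microtubule-associated protein, Cox7a2l, a factor in respiratory supercomplex assembly, Kcng3, a potassium channel subunit, Mta3, a subunit of the NuRD chromatin remodelling complex, and Haao, an enzyme of the kynurenine pathway. Haao comes directly before Zfp36l2 in this order. The genes after Zfp36l2 are Thada, Plekhh2, Dync2li1, which encodes a dynein subunit of cilia, and Abcg5, which encodes a sterol transporter. Only the order of these genes was used, and which of them lie under an anchor was not analysed here.

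The anchor at Zfp36l2 had 3 local partners, all of them upstream, which follows from its choice as the right end of the group. Its strongest loop reached 84513301, over 74.6 kb, with a score of 7000, the highest of the 31 loops. The nearer partner at 84527704 was 60.2 kb away, at a score of 4000. The remaining loop ran 234 kb to the anchor at 84353921 to 84354116, also at a score of 4000, and passed over 4 other anchors of the group. The partners at 84513301 and 84527704 had no other listed loop, whereas the anchor at 84353921 had 5 partners, 2 upstream and 3 downstream, and reached back towards the rest of the group. Thus the Zfp36l2 anchor was tied to the group by a single loop, and without it 3 anchors would stand apart from the other 22.

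Over the whole list, few loops of like length had scores as high as its 74.6 kb and 234 kb loops. Of the 1421 other loops of 49.8 to 112 kb, 38, or 2.67% (exact 95% interval 1.90 to 3.65%), had a score of 7000 or more, as the 74.6 kb loop did. Of the 495 other loops of 156 to 351 kb, 7.68% (5.49 to 10.4%) reached the 4000 of the 234 kb loop. For the 60.2 kb loop the share was 15.4% of 1488 loops (13.6 to 17.3%). The length limits are each loop's own length divided and multiplied by 1.5. Loops of other large groups were not set apart in these shares. At any length, the top score was above 7000 in 63 of the 124 other groups of 10 or more anchors. It was 7000 in 23 and lower in 38. The intervals cover counting error only, and loops that share anchors are not independent.

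The summed score of the Zfp36l2 anchor was 15000, or 14.9% of the 101000 of all 31 loops. Only 2 of the 25 anchors had a higher summed score, those at 83921999 to 83922464 with 19000 and at 84353921 to 84354116 with 16000. The anchor at 84065073 to 84065215 matched it with 15000. Each of these 3 had 4 or 5 partners, so the Zfp36l2 anchor reached its sum with fewer loops.

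No listed loop started at Zfp36l2 and ran downstream. None of the loops of up to 5 Mb passed over its right edge, and 1 longer loop did. The anchor was taken as the right end of the loops of up to 5 Mb that the rule found. None of those loops could therefore run past it, and their absence downstream is no finding. The next listed edge on the chromosome lay at 86165989, 1.58 Mb further on. Of the 122 other groups of 10 or more anchors that have a listed edge after them, 14 had a wider empty stretch at their right end, and their median was 199 kb. At the other end of the group, the nearest listed edge upstream lay only 46.1 kb away, at 83631004.

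**Figure D1:**
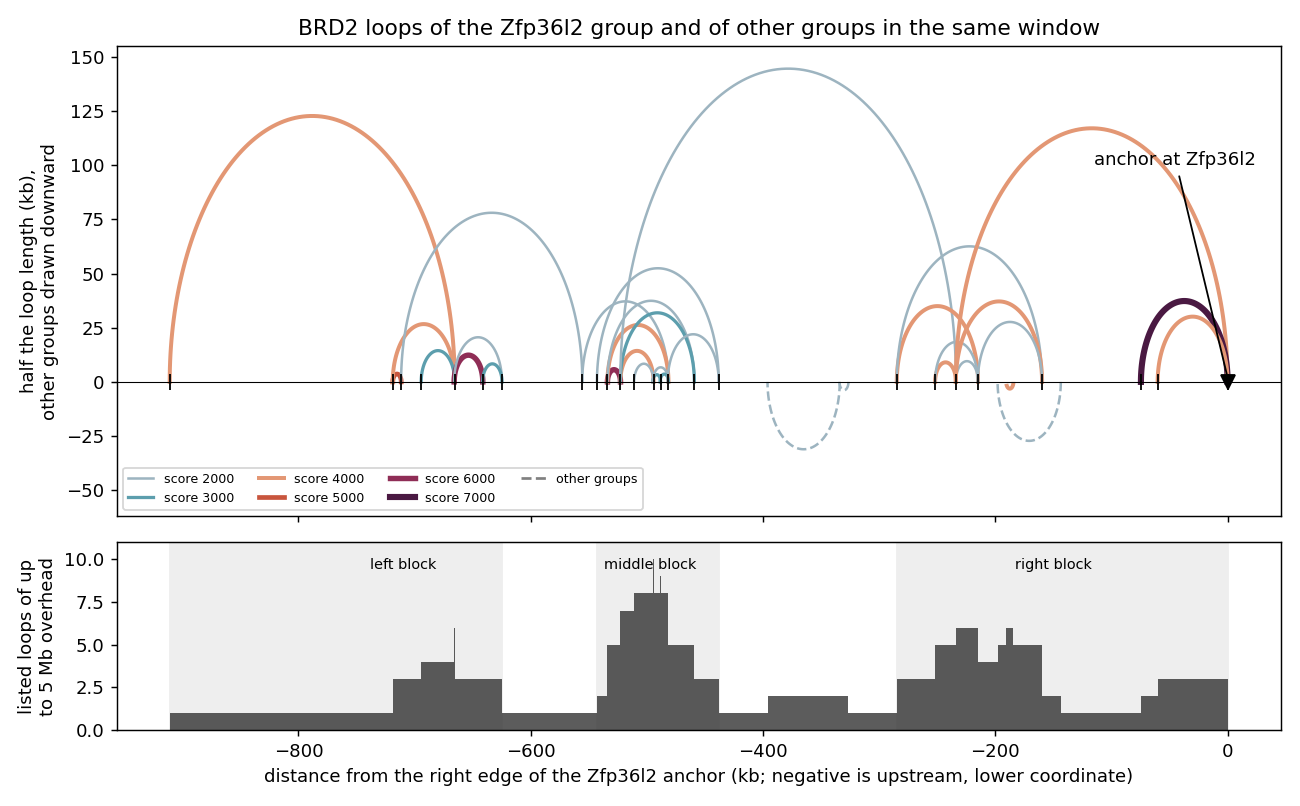
Arcs in the upper panel are the 31 loops of the Zfp36l2 group (above the line) and the 4 loops of other groups in the same window (dashed, below), coloured by the authors' score, and the lower panel counts the listed loops of up to 5 Mb over each position. The x axis is the distance in kb from the right edge of the Zfp36l2 anchor; the highest score, 7000, belongs to a loop of that anchor, and 1 to 10 loops lie over each position.

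The group consisted of 3 blocks and a lone anchor, joined by 3 loops that each had the lowest score, 2000. The left block ran from 83677087 to 83963178, with 7 anchors and 7 loops over 286 kb. The middle block was the most compact, with 9 anchors and 11 loops within 105 kb, from 84044944 to 84149797. The right block, which ends at Zfp36l2, had 8 anchors and 10 loops over 285 kb, from 84303102 to 84587929. The blocks were set apart by a rule on the list itself, the loss of every loop of score 2000 that splits the group with 3 or more anchors on each side, so their separation is a description.

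The first connecting loop joined the left block at 83876311 to the lone anchor at 84032218 to 84032363, over 156 kb. The second led from that lone anchor over 74.3 kb to the middle block, at 84105858 to 84106516. The last was the longest loop of the group, 289 kb, and joined the anchor at 84065073 to 84065215 in the middle block with the anchor at 84353921 to 84354116 in the right block. Every path through listed loops of up to 5 Mb from Zfp36l2 to the middle or left block runs over this 289 kb loop. Of the 6 loops whose loss would split the group with at least 3 anchors on each side, the other 3 had scores of 4000 or 5000, namely the loops from 83869131 to 83876411 and to 83922464 in the left block and the 234 kb loop of Zfp36l2.

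Much of the span was bridged by a single loop of the group. Of the 911 kb from end to end, 512 kb, or 56.2%, lay under only 1 loop of the group, and 0.608 kb lay under 10, the most at any position. With all listed loops of up to 5 Mb counted, 426 kb, or 46.8%, lay under only 1 loop. The stretches under a single group loop included 192 kb at the left end of the left block, 69.0 kb between the left block and the lone anchor, 153 kb between the middle and right blocks and 85.1 kb on the way to Zfp36l2 inside the right block. Within the gap between the middle and right blocks lay 2 loops of another group, from 84191806 to 84253964 and from 84253786 to 84261478, each with a score of 2000. They touched no anchor of the group, although the 289 kb loop passed over them. The other 2 such loops lay under the right block, from 84389905 to 84444302 with a score of 2000 and from 84397294 to 84403533 with a score of 4000.

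In the left block, the anchor at 83921999 to 83922464 was the hub, with 5 partners, 3 upstream and 2 downstream. Its strongest loop ran 24.6 kb to 83946642 with a score of 6000. Its loop to the far left end of the group, at 83677087, was 245 kb long and had a score of 4000. A loop of 53.3 kb to 83869131 also had a score of 4000, and a 7.28 kb loop from 83869131 to 83876411 had one of 5000. The block held 1 closed triangle, that is, 3 anchors each joined to the other 2.

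In the middle block, 3 anchors had 4 or more partners. The anchor at 84105858 to 84106516 had 5, of which 4 lay upstream. The anchors at 84065073 to 84065215 and at 84093085 to 84093693 had 4 each. The strongest loop joined 84053985 to 84065215 over 11.2 kb with a score of 6000. Loops of score 4000 ran from 84053985 to 84106516 over 52.5 kb and from 84065073 to 84093693 over 28.6 kb. It held 2 closed triangles out of 17 sets of 3 anchors with 2 or more loops among them.

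In the right block, the 10 loops had a median length of 65.1 kb, against 28.6 kb over 11 in the middle block and 28.9 kb over 7 in the left block. These medians rest on few loops, leave out the 3 connecting loops and have no interval. The anchor at 84353921 to 84354116 was its hub, and the anchor at 84372881 to 84373037 had 4 partners, 3 of them upstream. Besides the loops of the Zfp36l2 anchor, scores of 4000 were held by the loop from 84303102 to 84373037 (69.9 kb), the loop from 84336095 to 84354116 (18.0 kb) and the loop from 84353921 to 84428180 (74.3 kb). The block held 3 closed triangles among 14 sets of 3, and none of these included the Zfp36l2 anchor, whose 3 partners were not joined to each other.

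**Figure D2:**
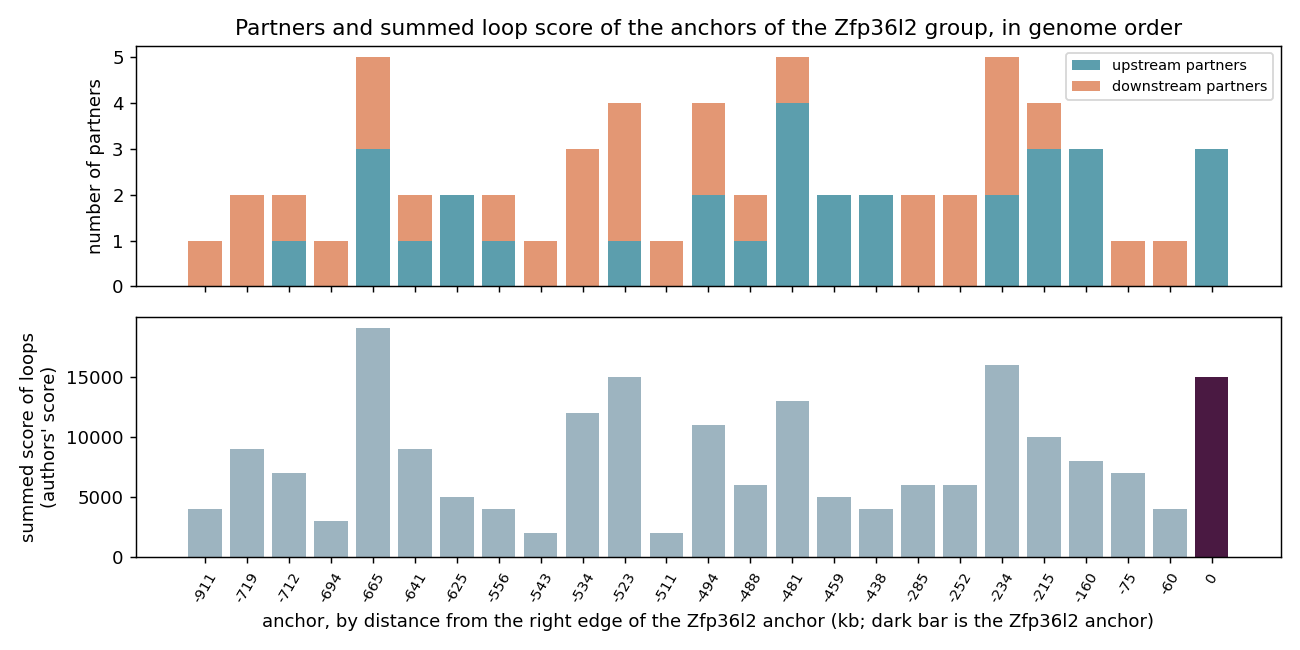
Bars give, for each of the 25 anchors in genome order, the number of upstream and downstream partners (upper panel) and the summed score of its loops of up to 5 Mb (lower panel); anchors are named by the distance in kb of their seen edge (the right edge where both were seen) from the right edge of the Zfp36l2 anchor. The Zfp36l2 anchor, dark, has 3 partners and a summed score of 15000, and 2 anchors stand higher.

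Over the whole group, anchors had a mean of 2.48 ± 1.33 partners (SD over 25 anchors). A single partner was listed for 6 anchors, and 6 had 4 or more. Partners on both sides were seen for all 6 anchors with 4 or more and for 10 of the 25 in all, while 10 had downstream partners only and 5 upstream partners only. A left edge is seen only where a loop starts and a right edge only where one ends. Both edges, and so a width, are therefore known only for the 10 anchors with partners on both sides. Their width ranged from 100 to 658 bp with a median of 176 bp, against a median of 351 bp over the other 2074 such anchors of the list. The 10 widths lay at 100 to 195 bp and at 441 to 658 bp, on both sides of 351 bp. No interval was computed. Of the 31 loops, 12 joined neighbouring anchors of the group and 19 passed over 1 to 8 other anchors of the group. Anchors of other groups were not counted here. Of 55 sets of 3 anchors with 2 or more loops among them, 6, or 10.9%, were closed.

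The 31 loops had a median length of 52.5 kb (quartiles 18.6 and 74.5 kb), against 28.6 kb (12.6 and 76.0 kb) over the other 7701 loops. The exact 95% interval of the group's median, 24.6 to 74.3 kb, includes the value of the others. Of the other 124 groups of 10 or more anchors, 24 had a longer median. The mean score was 3258 ± 1390 (SD over 31 loops), against 3079 ± 2252 over the others. The lowest score was held by 13 of the 31, a score of 3000 by 5, a score of 4000 by 9 and a higher one by 4. Scores of 3000 or more thus made up 58.1% (exact 95% interval 39.1 to 75.5%), against 42.1% (41.0 to 43.2%) of the other loops, and the interval of the group includes that of the others. Scores of 4000 or more made up 41.9% (24.5 to 60.9%), against 21.8% (20.8 to 22.7%) of all other loops and 27.5% (25.6 to 29.5%) of the loops of the other groups of 10 or more anchors, which lies inside the interval of the group.

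Within loops of 20 to 100 kb, the intervals of the group and of the other loops lay apart at a score of 4000 or more and overlapped at 3000 or more. Here 8 of 16 loops, or 50.0% (24.7 to 75.3%), had a score of 4000 or more, against 18.2% (16.9 to 19.6%) of 3216 other loops and 25.3% (22.5 to 28.2%) of 906 loops of the other groups of 10 or more anchors. A score of at least 3000 was held by 62.5% (35.4 to 84.8%) of the 16, against 38.2% (36.5 to 39.9%) of the other loops. At 5 to 20 kb the share with a score of 4000 or more was 33.3% of 9 loops (7.49 to 70.1%), against 31.8% (30.1 to 33.5%) of the other loops. At 100 to 500 kb the share with a score of 4000 or more was 2 of 6 loops, or 33.3% (4.33 to 77.7%), against 9.72% (8.10 to 11.5%). With 6 to 16 loops a class, these intervals are wide, and in each class the interval of the group overlaps that of the other large groups. In the other length classes it also overlaps that of all other loops, at both scores. The intervals cover counting error only, and loops that share anchors are not independent, so intervals that lie apart are no test. Score and length had a Spearman's rho of -0.16 over the 31 loops and -0.27 over the others, a description over loops that share anchors.

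**Figure D3:**
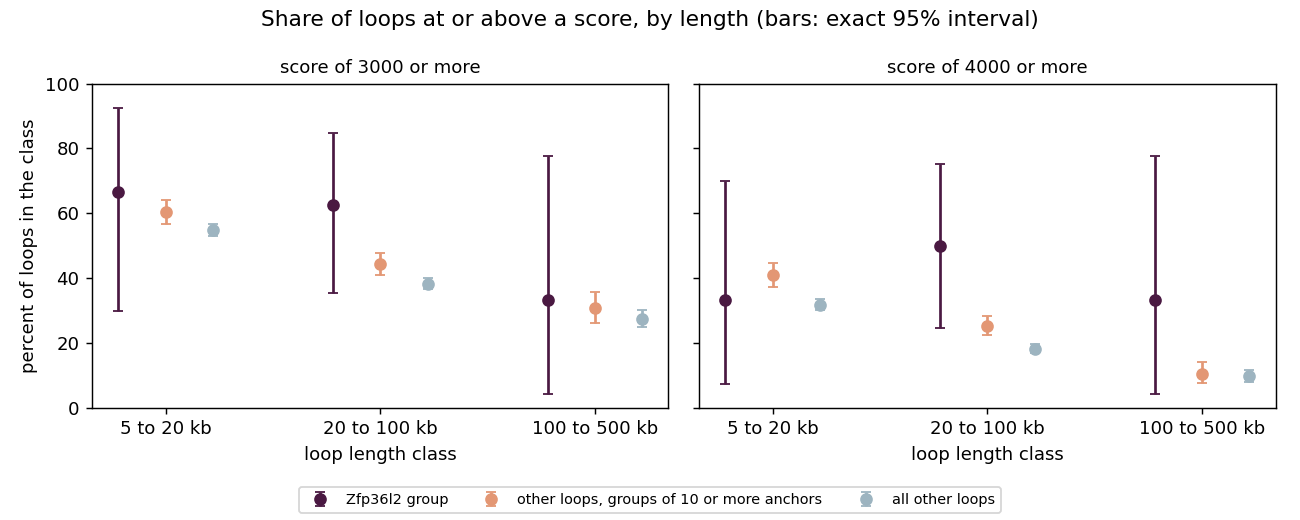
Points give the percent of loops with a score of at least 3000 (left) or 4000 (right) in 3 length classes, for the Zfp36l2 group, the other groups of 10 or more anchors and all other loops, with exact 95% intervals for counting error. The intervals of the group overlap those of the other large groups in every class.

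With loops of up to 5 Mb, the list held 125 connected groups of 10 or more anchors, and the Zfp36l2 group was the second largest by anchors. Its highest score, 7000, stood below the median of their top scores. Of the 124 others, 63 had a higher top score, 23 the same and 38 a lower one, with a median of 8000. Among the 5 other groups of 20 or more anchors, however, the top scores were 10000 to 19000, so the Zfp36l2 group was the one without a loop of 10000 or more. Its 1.24 loops per anchor stood close to the median of 1.17 over the other 124, and its share of closed sets, 10.9%, close to their median of 8.76%. Its anchors were spaced by 38.0 kb on average, against a median of 32.9 kb.

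The group broke apart when low scores were left out. With a minimum score of 3000, 18 loops and 21 anchors remained in 4 separate pieces. The left block kept its 7 anchors, the middle block kept 6 of 9, and the right block parted into a piece of 6 anchors that holds Zfp36l2 and a single loop of 2 anchors. The largest piece thus held 7 anchors, against a median of 5 over the other 124 groups, of which 22 had a larger piece and 91 a smaller one. As a share of all anchors, which falls as a group gets larger, it held 28.0%, against a median of 40.0%, and 33 of the 124 had a lower share. In the 5 other groups of 20 or more anchors, the largest piece held 6 to 13 anchors. Each of these 5 also had at least 1 loop of score 2000 whose loss splits it with 3 or more anchors on each side, as had 68 of the 124. Of the 124, 2 had more than the 6 splitting loops of the Zfp36l2 group, and 2 had as many. The 5 other groups of 20 or more anchors had 2 to 7 splitting loops, a range that includes 6.

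**Figure D4:**
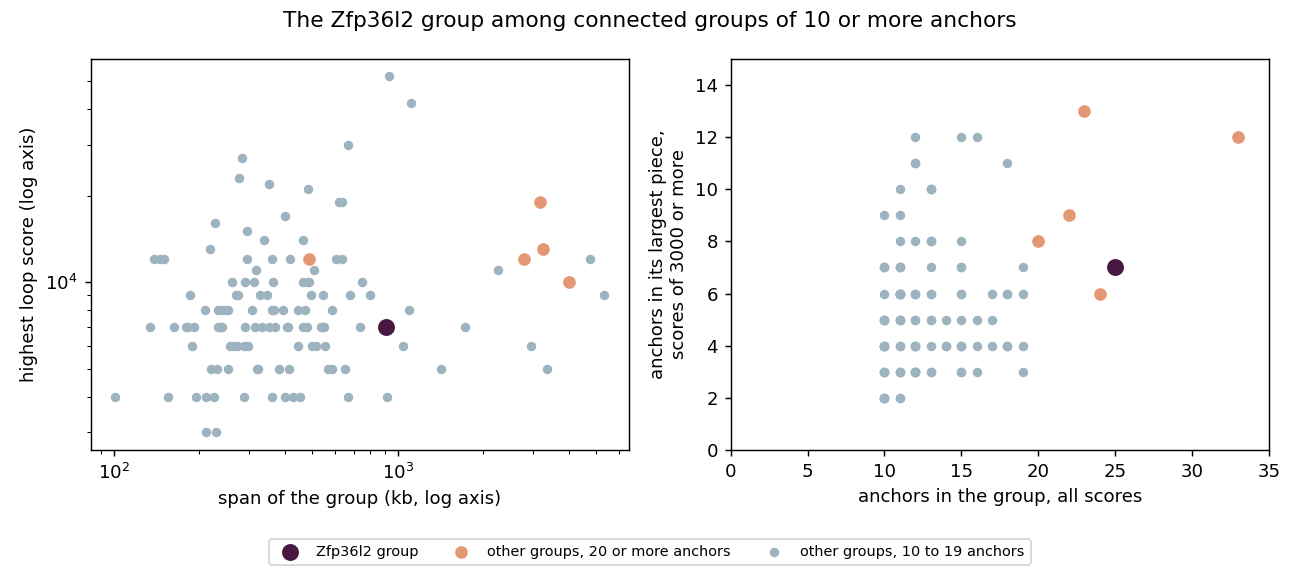
Each point is a connected group of 10 or more anchors: highest loop score against span (left, both axes log) and anchors in the largest piece left at a minimum score of 3000 against all anchors (right); points can coincide. The Zfp36l2 group has a top score of 7000 and a largest piece of 7 of 25 anchors.

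The 2 loops over 5 Mb both had the lowest score. The first joined the Zfp36l2 anchor to 45756001, over 38.8 Mb, to an anchor that had 2 local loops with a summed score of 13000. The second joined the left hub at 83922464 to 34700960, over 49.2 Mb, to a place with no local loop. The longest loop inside the limit was 289 kb, so no loop of the window lay near the limit of 5 Mb. Of the 125 groups, 38 held an end of at least 1 of the 162 loops over 5 Mb.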

How the data were processed

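BRD2 ChIA-PET was measured in 2 samples of 1 group. Per the file headers, the authors merged both into a list of high-confidence interactions. The deposited values are a score per loop, whole multiples of 1000, and positions on mm9. Tools named in the submitters' processing notes are cutadapt and Bowtie, with mm9 as build. For the caller, its thresholds and the read depth, the sources used here give nothing. Start and end of the first anchor were read as a loop's outer edges, an inference. Edges were paired into 1 anchor where a right edge followed a left edge within 5000 bp. Connected groups were formed from loops of up to 5 Mb. Shares have exact Clopper-Pearson 95% intervals. There was no comparison between conditions and no test. The anchor and group steps were tested on simulated data (Python 3.11.15, pandas 2.3.3, scipy 1.17.1, networkx 3.6.1, matplotlib 3.10.9). The simulated anchors lay further apart than the closest anchors of this group, so the pairing of edges of close neighbours was not tested.

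The members and lists were chosen with earlier results of these data known. Named were all loops of the Zfp36l2 anchor, all loops with a score of 4000 or more, the 3 longest, those over 5 Mb, anchors with 4 or more partners and those whose loss splits the group with 3 or more anchors on each side; other loops and anchors are named as ends of these, as splitting loops or as loops of other groups, chosen after their values were seen. The gene table (GRCm38.p6) served only for gene order. The planned motif search in the Zfp36l2 promoter was not run.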

Additional observations from a re-analysis of the deposited data

How the results depend on the processing

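Of 42 values recomputed under other settings, 33 stayed within 1.5 times the reported count or inside the exact interval of the reported share or median (24.6 to 74.3 kb for the median length), and 9 moved. With a minimum score of 3000, the group that holds the Zfp36l2 anchor had 5 loops, 6 anchors, a summed score of 23000 and 0 closed triangles. Without the 3 splitting loops of score 2000, a setting chosen after seeing the data, it had 10 loops, 8 anchors, a summed score of 35000 and 3 closed triangles. Both follow from leaving out loops. With only loops longer than 10 kb, the group fell to 22 loops and 18 anchors, values that count as unchanged by the 1.5 times rule. That setting drops the 7.28 kb loop from 83869131 to 83876411, whose loss parts 6 anchors from the other 19. Midpoints are known for 9 loops, whose median length between them was 24.4 kb. Between outer edges the same 9 loops had a median of 24.6 kb, so the choice of loops moved it. The Zfp36l2 anchor kept 3 partners in every setting run except that with loops over 5 Mb counted, where it had 4. Since depth is unknown, nothing can be read from a loop that is not listed. Leaving out a replicate was not possible with a merged list. No paired analysis was possible because both samples belong to 1 group and were merged.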
